A study of Mus musculus with 3 samples.

Results

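Expression of 9 early lymphoid and B lineage genes was examined in 3 mouse acute myeloid leukemias that lack the microRNA miR-196b. The genes, Dntt, Rag1, Rag2, Il7r, Ebf1, Pax5, Cd79a, Cd79b and Ighm, were picked by symbol as known lymphoid genes, with earlier results of these data known, and all 9 were found among the 28074 gene symbols of the deposited table. The question addressed was whether a myeloid leukemia driven by mutant Flt3 carries transcripts of the lymphoid program.

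Each of the 3 mice carried miR-196b-/-, Dnmt3a fl/fl, Flt3 ITD/ITD and Mx1Cre according to its genotype label, while the sample titles write the Dnmt3a genotype as +/-. Flt3 ITD is an internal tandem duplication of the Flt3 receptor, and Mx1Cre is a recombinase under an interferon-inducible promoter that is active in blood cells and also in other tissues. Leukemic spleen cells of moribund mice were depleted of red cells and enriched on magnetic beads for c-Kit, a receptor of immature blood cells, and each library came from a different mouse. The mice form 1 group, and mice 1, 2 and 3 are numbered only to name them. The control leukemias with intact miR-196b belong to another series and were not analysed here, so no genotype difference was computed and no test between groups was possible. Values are TPM, a transcript level scaled for transcript length and library size. How many reads stand behind a TPM value is unknown, and the SD over the 3 mice is the only error given. The table had 0 rows for Mir196b, so the deletion was not checked. The column sums were 929731, 927169 and 928490 TPM.

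B lymphopoiesis starts in progenitors that still keep myeloid potential and that switch on a few lymphoid genes at a low level, a state called lymphoid priming. The recombinase proteins Rag1 and Rag2 then cut antigen receptor genes, terminal transferase (Dntt) adds bases at the joints, and the interleukin-7 receptor (Il7r) carries survival signals. The transcription factors Ebf1 and Pax5 specify and fix the B cell fate, and their targets Cd79a and Cd79b encode the signalling chains that accompany the membrane immunoglobulin made from Ighm.

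RefSeq promoter windows (build GRCm38.p6, from 250 bases before to 50 after an annotated start, 300 bases each) were matched for 7 of the 9 genes. Of these, 4 are shown: Cd79a, a textbook target of early B cell factor and Pax5, Rag1 and Rag2, neighbours whose levels differed widely, and Il7r. They are printed 5′ to 3′ on the gene's strand, with capitals for 6 motifs picked after the windows were read and searched on both strands: CCCNNGAG (the form of the early B cell factor site in the Cd79a promoter), CAGGTG (an E-box of E proteins such as Tcf3), TGTGGT (Runx), TTCNNNGAA (STAT), ATTTGCAT (octamer) and TGGGAA (Ikaros).

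Cd79a, chr7:24897247-24897546, plus strand: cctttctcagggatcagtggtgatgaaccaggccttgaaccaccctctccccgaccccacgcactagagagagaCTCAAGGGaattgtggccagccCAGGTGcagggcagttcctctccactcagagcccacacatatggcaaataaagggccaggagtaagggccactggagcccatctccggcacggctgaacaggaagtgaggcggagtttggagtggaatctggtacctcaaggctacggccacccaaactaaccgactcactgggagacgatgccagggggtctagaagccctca
Rag1, chr2:101649483-101649782, minus strand: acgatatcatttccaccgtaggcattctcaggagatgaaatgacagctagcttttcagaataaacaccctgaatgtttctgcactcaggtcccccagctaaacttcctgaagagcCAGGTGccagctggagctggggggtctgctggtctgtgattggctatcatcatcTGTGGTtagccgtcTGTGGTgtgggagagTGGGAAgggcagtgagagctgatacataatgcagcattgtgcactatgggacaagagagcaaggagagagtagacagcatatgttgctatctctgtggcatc
Rag2, chr2:101624462-101624761, plus strand: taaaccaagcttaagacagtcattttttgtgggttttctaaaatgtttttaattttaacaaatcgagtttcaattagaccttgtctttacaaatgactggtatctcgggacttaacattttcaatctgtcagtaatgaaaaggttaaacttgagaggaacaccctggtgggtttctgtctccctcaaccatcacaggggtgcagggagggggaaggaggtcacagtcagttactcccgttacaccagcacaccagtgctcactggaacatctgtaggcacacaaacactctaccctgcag
Il7r, chr15:9529827-9530126, minus strand: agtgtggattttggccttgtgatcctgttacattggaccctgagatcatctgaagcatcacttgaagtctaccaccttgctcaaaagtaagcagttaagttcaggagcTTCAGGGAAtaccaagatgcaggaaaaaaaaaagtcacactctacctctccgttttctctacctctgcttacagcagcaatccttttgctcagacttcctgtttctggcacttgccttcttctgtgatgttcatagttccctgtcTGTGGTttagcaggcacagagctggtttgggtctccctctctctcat

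The Cd79a window held the early B cell factor form, on the minus strand, at bases 75 to 82 and an E-box at bases 97 to 102, counted from 1 at the window's 5′ end. The Rag1 window held an E-box at base 116, Runx motifs at bases 170 and 184 and an Ikaros motif at base 199. It also holds the annotated 5′ end of B230118H07Rik (chr2:101649532, same strand), so these motifs cannot be assigned to Rag1 alone. In the Il7r window a STAT motif stood at base 109 and a Runx motif at base 254. By the GENCODE M21 annotation the Il7r window lies wholly inside the gene (chr15:9505788-9530176), so there its motifs are not upstream of the gene. None of the 6 motifs was in the Rag2 window. These motifs are short and common: CCCNNGAG was in 24.6% of all 32851 windows, CAGGTG in 20.2%, TGTGGT in 16.8%, TTCNNNGAA in 8.30%, ATTTGCAT in 1.74% and TGGGAA in 25.6%. Their presence is a description of sequence and not of binding. No motif overlapped another in the printed windows.

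The 9 genes were mostly low. A level of at least 1 TPM in all 3 mice was reached by 6 of 9 (Dntt, Rag2, Il7r, Ebf1, Cd79b and Ighm), beside 50.7% of all symbols in the table, so this share was near the background. The median over the 9 genes of the mean level was 2.38 TPM, against 1.67 TPM over all 28074 symbols and 17.5 TPM over the 15181 symbols with a mean of at least 1 TPM. Of the 9, 8 stood under that last median and only Ighm stood over it. Their summed level was 57.8, 102 and 138 TPM in mice 1, 2 and 3, and Ighm alone made up 55.6%, 75.4% and 78.2% of it. The sum of the other 8 members was 25.7, 25.1 and 30.0 TPM.

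**Figure D1:**
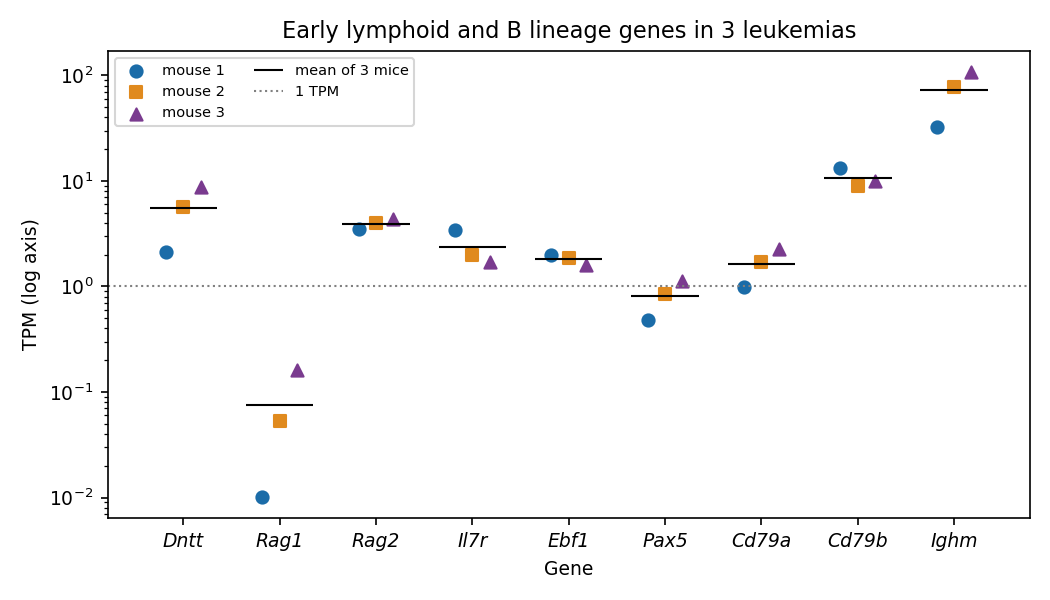
TPM on a log axis for each of the 9 genes in each mouse, with a bar at the mean of 3 mice and a dotted line at 1 TPM. Ighm lies above all others in every mouse, Rag1 lies below all others, and the other 7 genes lie between 0.486 and 13.1 TPM.

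Ighm encodes the constant region of the mu heavy chain. Its row lies on chr12:113418558-113422730, minus strand (GENCODE M21, GRCm38, the build that the submitters' processing notes call mm10). It stood at 32.2, 76.8 and 107.7 TPM in mice 1, 2 and 3, which averaged 72.2 ± 38.0 TPM (SD, n = 3, as for each mean below). By mean TPM it ranked 2245 among all 28074 symbols. Mouse 1 was the low one, and the highest mouse had 3.35 times the level of the lowest. The mu locus is known to be transcribed before it is rearranged, and a row for the constant region does not separate such germline transcripts from those of a rearranged heavy chain.

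The light chain and the other heavy chain classes put that level in context. Of 12 immunoglobulin constant genes, 8 were rows of the table and 3 of these were at 1 TPM or more in all mice. Igkc, the kappa light chain constant gene, was as abundant as Ighm, at 31.8, 45.7 and 146 TPM. The ratio of Ighm to Igkc was 1.01, 1.68 and 0.738, so neither was higher in all 3 mice. Ighg3, a constant gene of switched IgG, had 0, 0.259 and 0.610 TPM, and Ighe, the constant gene of IgE, was listed at 0 in all 3 mice. All 4 genes listed for the pre-B receptor and the surrogate light chain, which pairs with the mu chain in pre-B cells, were under 1 TPM in every mouse. Vpreb1 had 0.246, 0.129 and 0.977 TPM, Igll1 0.130, 0.273 and 0.481 TPM, Vpreb3 0.306, 0.322 and 0.425 TPM, and Vpreb2 was listed at 0.

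Cd79b and Cd79a encode Ig-beta and Ig-alpha, which work as a pair, and their levels were not alike. Cd79b (chr11:106311341-106314762, minus strand) had 13.1, 8.94 and 10.1 TPM, a mean of 10.7 ± 2.16. Cd79a (chr7:24897381-24902197, plus strand) had 0.988, 1.69 and 2.26 TPM, a mean of 1.64 ± 0.637. The lowest Cd79b value was above the highest Cd79a value, and the ratio of Cd79b to Cd79a was 13.3, 5.30 and 4.46 in mice 1, 2 and 3. The mice also ordered differently: Cd79b was highest in mouse 1, where Cd79a was lowest.

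Ebf1 and Pax5, the factors that specify B cells, were both low. Ebf1 (chr11:44617317-45008091, plus strand) had 2.01, 1.87 and 1.60 TPM, a mean of 1.83 ± 0.206, and its highest mouse had 1.25 times the level of its lowest. Pax5 (chr4:44524757-44710487, minus strand) had 0.486, 0.850 and 1.12 TPM, a mean of 0.820 ± 0.320, and passed 1 TPM only in mouse 3. Exons of Pax5 overlap those of Gm12462, an antisense gene on the opposite strand, which was at most 0.0229 TPM, and those of 5730488B01Rik on the same opposite strand, which was not analysed here.

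Factors that act before or beside Ebf1 and Pax5 ranged far more widely. Of 10 B lineage transcription factors and partners, 7 reached 1 TPM in all mice, and the list's median was 6.38 TPM. Ikzf1 (Ikaros), needed for the whole lymphoid lineage but also active in myeloid cells, had 221, 227 and 216 TPM. Tcf3, which encodes the E2A proteins, had 101, 68.1 and 80.6 TPM, and its ratio to Ebf1 was 50.5, 36.4 and 50.4. At the other end stood Pou2af1, the B cell coactivator of octamer factors, at 0.0829, 0.665 and 0.869 TPM, and Ikzf3 (Aiolos), a relative of Ikaros in maturing lymphocytes, at 0.645, 1.14 and 1.62 TPM. The ratio of Sfpi1, the table's symbol for the myeloid and B lymphoid factor PU.1, to Pax5 was 382, 310 and 200.

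A similar contrast was seen among proteins that act downstream of the B cell receptor. Of 9 genes in this list, 8 reached 1 TPM in all mice and 3 had a mean of at least 100 TPM. Lyn, a kinase that myeloid cells use as well, had 207, 267 and 190 TPM, and the phosphatase gene Ptpn6 had 187, 183 and 213 TPM. The lowest were Blk, a B lymphoid kinase, at 0.316, 0.602 and 0.478 TPM, and Blnk, the adaptor that links the receptor's kinases to their targets, from 1.61 TPM in mouse 1 to 2.39 TPM in mouse 3. The list's median was 78.3 TPM, and most of its high members are genes that myeloid cells are known to share.

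Of the V(D)J recombination genes, Dntt and Rag2 were present in every mouse and Rag1 was close to 0. Dntt (chr19:41029275-41059525, plus strand) had 2.10, 5.69 and 8.73 TPM, a mean of 5.51 ± 3.32. Rag2 (chr2:101624718-101632529, plus strand) had 3.53, 3.96 and 4.36 TPM, a mean of 3.95 ± 0.415. Rag1 (chr2:101638282-101649501, minus strand) had 0.0102, 0.0534 and 0.160 TPM, a mean of 0.0747 ± 0.0773, and was the lowest of the 9 genes. Dntt varied 4.16-fold between the lowest and highest mouse, Rag2 varied 1.24-fold, and every Rag2 value was above every Rag1 value. Rag1 and Rag2 act only as a complex and are neighbours on chromosome 2.

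The Rag2 row shares its locus with another gene. Exons of B230118H07Rik, which spans chr2:101560781-101649532 on the minus strand, overlap exons of Rag2 on the opposite strand and the exon of Rag1 nearest its start on the same strand. B230118H07Rik had 18.8, 15.1 and 12.5 TPM, a mean of 15.5 ± 3.19, and it was 5.34, 3.82 and 2.86 times as high as Rag2. It was highest in mouse 1 and lowest in mouse 3, the reverse of Rag2. The libraries are labelled stranded, but whether strand was used in quantification is not given in the sources used here, so the levels of both Rag2 and Rag1 are uncertain. Its part in the difference between Rag2 and Rag1 was not tested.

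The end joining factors that seal the cut ends, which all cell types use, were present. All 8 reached 1 TPM in every mouse, with a median of 15.1 TPM. Hmgb1, a DNA bending protein that assists the recombinase and has many other roles, had 411, 356 and 368 TPM, and Xrcc6 (Ku70) had 42.7, 47.9 and 46.6 TPM. The lowest were Lig4, the ligase of this pathway, at 1.59, 1.47 and 2.25 TPM, and Nhej1, its cofactor, at 4.52, 5.22 and 5.73 TPM.

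Il7r encodes the alpha chain of the interleukin-7 receptor (chr15:9505788-9530176, minus strand). It had 3.44, 2.01 and 1.71 TPM, a mean of 2.38 ± 0.926, and was highest in mouse 1. The other 6 genes of its signalling list were all far higher, and all 7 reached 1 TPM in every mouse. Jak1, the kinase bound by the alpha chain, had 141, 130 and 134 TPM, and Il2rg, the shared gamma chain, had 84.7, 57.6 and 61.1 TPM. Jak3, the kinase bound by the gamma chain, was the lowest after Il7r, at 32.5, 23.0 and 20.5 TPM. Crlf2, named here after its values were seen, encodes the chain that pairs with Il7r in the receptor for thymic stromal lymphopoietin. It was 18.9, 27.3 and 26.8 times as high as Il7r. In Il7r, then, the list held 1 low member beside 6 with means from 25.3 to 135 TPM.

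Genes that mark lymphoid-primed progenitors were mostly well expressed. Of 9 in the list, 8 reached 1 TPM in all mice and the median was 56.0 TPM. Lsp1, a leukocyte actin-binding protein, had 1135, 1805 and 1247 TPM, and Flt3, whose high level marks lymphoid-primed progenitors and which is mutated in these mice, had 146, 157 and 106 TPM. The lowest were Ly6d, which marks the commitment of common lymphoid progenitors to the B lineage, at 0, 0.837 and 2.21 TPM, and Ccr9, a homing receptor, at 4.01, 5.44 and 4.29 TPM. The ratio of Flt3 to Il7r was 42.5, 78.5 and 62.0.

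**Figure D2:**
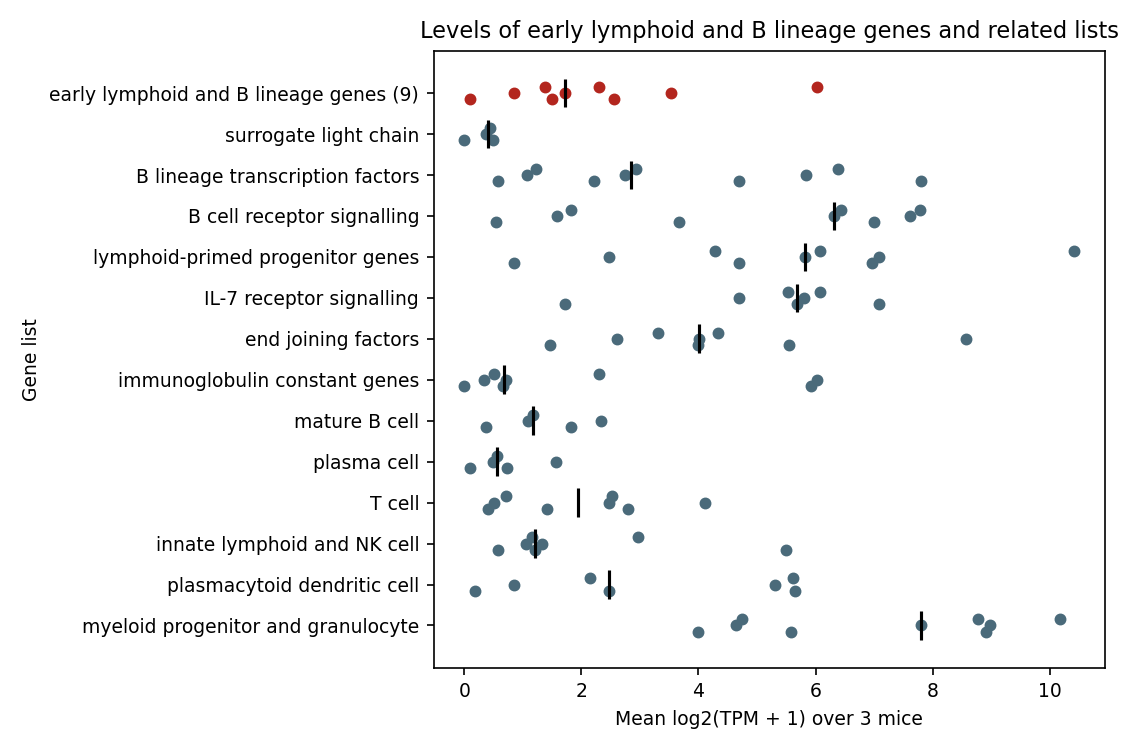
Mean log2(TPM + 1) over 3 mice for each gene of each list (points, spread vertically only for legibility), with a black bar at the list's median. The 9 genes center near 1.73 with Ighm alone at 6.03, while the myeloid list lies highest, and the surrogate light chain list lies lowest, with every point under 1.

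Markers of myeloid cells set the scale for these levels. All 9 myeloid progenitor and granulocyte genes reached 1 TPM in every mouse, and 5 had a mean of at least 100 TPM. Mpo, the peroxidase of primary granules, had 1081, 864 and 1632 TPM, which was 33.6, 11.2 and 15.2 times Ighm and 515, 152 and 187 times Dntt. Ctsg, another granule protease, had 618, 376 and 552 TPM. The lowest of the list were Csf1r, a monocyte receptor, at 8.35, 15.6 and 24.8 TPM, and Csf3r, the receptor for granulocyte colony-stimulating factor, at 16.3, 22.6 and 45.6 TPM. The labelled myeloid identity thus had its defining transcripts in every library.

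In order of mean level the genes ran from Ighm through Cd79b, Dntt, Rag2, Il7r, Ebf1, Cd79a and Pax5 to Rag1. Of the 8 neighbouring pairs in this order, 4 had ranges that overlapped between the mice: Dntt with Rag2, Il7r with Ebf1, Ebf1 with Cd79a, and Cd79a with Pax5. Ighm was clear of Cd79b, and Pax5 was clear of Rag1. The gaps between Cd79b and Dntt (8.94 against 8.73 TPM) and between Rag2 and Il7r (3.53 against 3.44 TPM) were narrow.

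Across mice, 6 of the 9 genes (Dntt, Rag1, Rag2, Pax5, Cd79a and Ighm) were lowest in mouse 1 and highest in mouse 3. This order was picked after the values were seen, so the shares below cannot gauge it. The same order held for 10.4% of the 21681 symbols above 0 in any mouse. Among symbols with a mean of at least 1 TPM it held for 4 of 7 of the genes (Rag1 and Pax5 are below that level) and for 9.93% of 15181 symbols. After each library was scaled to a common upper quartile, 6 of the 9 had this order. The share among symbols with a scaled mean of at least 1 TPM was then 15.9%. The other 3 genes, Il7r, Ebf1 and Cd79b, were highest in mouse 1. Genes of a lineage are not independent of each other, and 3 mice allow no test of the pattern.

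The size of these differences varied from gene to gene. On the TPM scale, 4 of the 7 genes with a mean of at least 1 TPM (Dntt, Il7r, Cd79a and Ighm) were at least 2-fold apart between mice 1 and 3, beside 8.70% of all 15181 such symbols. After upper-quartile scaling it was 3 of 7, since Il7r, which is 2.01-fold apart in the values as deposited, fell under 2-fold. Between mice 1 and 2 it was 2 of 7 (Dntt and Ighm) beside 8.00%, and between mice 2 and 3 it was 0 of 7 beside 5.54%. Il7r was lower in mouse 3 than in mouse 1, while Dntt, Cd79a and Ighm were higher there. Between the lowest and the highest mouse, whichever they were, the same 4 of 7 genes were at least 2-fold apart, beside 13.8% of these symbols. The 2 genes with a lower mean, Rag1 and Pax5, differed 15.7-fold and 2.32-fold between their lowest and highest mouse, at levels of at most 1.12 TPM.

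Some markers of other spleen cells had the same order over the mice as some of the 9 genes. The cells had been enriched for c-Kit, a receptor that mature B and T cells generally lack. How pure the enriched cells were is not given in the sources used here. The order with mouse 1 lowest and mouse 3 highest, picked after the values were seen, held for 10.4% of symbols above 0 in any mouse. It held for 5 of 8 immunoglobulin constant genes, Ighm and Igkc among them. Of 5 mature B cell markers used, 4 were lowest in mouse 1 and highest in mouse 3 (Cr2 was not), and their summed level ranged from 6.95 to 12.0 TPM with none at 0. The 2 highest were the IgE receptor Fcer2a (from 3.42 TPM in mouse 1 to 4.74 TPM in mouse 3) and the inhibitory receptor Cd22 (1.70, 2.94 and 3.20 TPM), and the 2 lowest were the follicle homing receptor Cxcr5 (0.0183, 0.184 and 0.826 TPM) and the B cell surface protein Ms4a1 (0.493, 1.11 and 2.12 TPM). Of 8 T cell markers, 5 had the same order (6 after scaling), with a summed level from 32.5 to 38.1 TPM and none at 0. Their highest gene was Lck, at 18.2, 14.5 and 16.4 TPM, and Cd3g had 0.159, 0.250 and 1.02 TPM. The order was shared by 1 of 5 plasma cell markers (summed level 2.32 to 5.70 TPM, Tnfrsf17 at 0 in mouse 1), by 1 of 7 innate lymphoid and NK cell markers (48.5 to 79.6 TPM, 2 after scaling, none at 0) and by 4 of 7 plasmacytoid dendritic cell markers (140 to 158 TPM, Ly6d at 0 in mouse 1). Most of the innate lymphoid and NK sum was Klrk1 (36.4, 67.6 and 35.4 TPM), and Eomes was lowest (0.368, 0.361 and 0.756 TPM). Most of the plasmacytoid sum was Bst2, Tcf4 and Runx2, with means of 49.9, 48.2 and 39.1 TPM. Siglech and Cox6a2 of that list had means of 3.46 and 0.141 TPM. Of the 9 myeloid genes, 3 had it, and their summed level was 2880, 2222 and 3980 TPM. The part of these cells in the levels of the 9 genes was not tested, and in bulk RNA fewer cells of a type and less RNA per cell cannot be told apart.

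**Figure D3:**
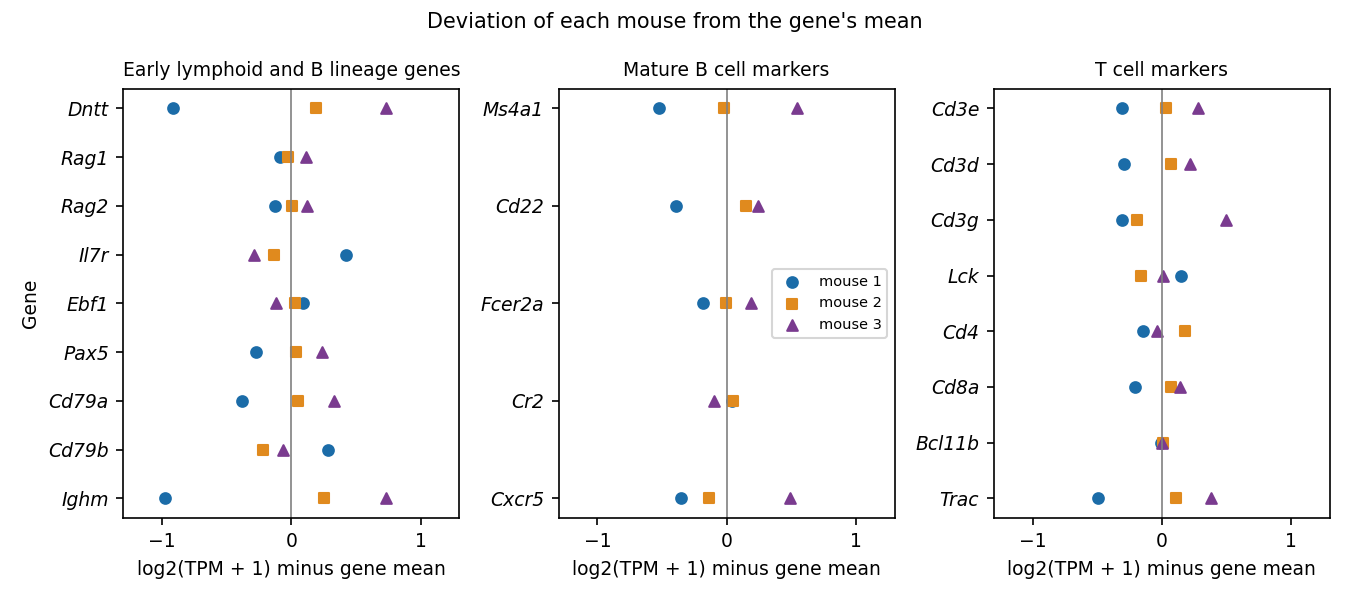
Deviation of each mouse from the gene's mean on the log2(TPM + 1) scale, for the 9 genes (left), mature B cell markers (middle) and T cell markers (right). Mouse 1 lies lowest and mouse 3 highest for 6 of 9, 4 of 5 and 5 of 8 genes, and Dntt and Ighm are spread most widely.

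Dntt and Ighm were close in profile, but Rag1 and Rag2 were closer. Over the 3 mice, the distance between the mean-centred log2(TPM + 1) profiles of Dntt and Ighm was 0.0865. That of Rag1 and Rag2 was 0.0519, the smallest between any pair of the 9 genes. The nearest 3 genes in the table to Dntt and to Ighm were AW011738, Gm17018 and Mab21l3, at 0.0272 to 0.0524 from Dntt and 0.0627 to 0.0823 from Ighm. In mouse 1 they had 0.913, 4.23e-09 and 0.523 TPM, so their profiles depend on the 1 TPM added before the log. Within 0.1 there were 5 genes for Dntt (0.0329% of those compared) and 4 for Ighm (0.0264%). More genes, 494 (3.25%), lay within 0.1 of Rag2 (Ubl5 nearest, then Hsd17b11 and Chordc1), 229 (1.51%) of Il7r (Dyrk3, Ncald and Cdk18), 652 (4.30%) of Cd79b (Slc7a4, Eif5a and Pigg) and 1435 (9.45%) of Ebf1 (Jph4, Ptp4a1 and Gm16234). The distance was not scaled for spread, so these counts depend in part on how much a gene varied. The SD of log2(TPM + 1) was 0.841 for Dntt and 0.884 for Ighm. It was 0.103 for Rag1, 0.122 for Rag2, 0.376 for Il7r, 0.260 for Cd79b and 0.107 for Ebf1. With 3 points per profile, likeness of this kind is a description only.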

How the data were processed

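The authors deposited 1 table with a value per gene symbol. Its name says log2 FPKM, but the values are linear and the columns sum to nearly equal totals, so they were treated as TPM. The authors made these TPM values per library before deposit, and the submitters' processing notes name kallisto, which estimates transcript abundance, and mm10. The version, the annotation and the step from transcripts to genes are not given in the sources used here. Per the labels' protocols, RNA with an integrity number above 8.0 was sequenced with stranded, paired-end reads of 150 nt. One protocol names ribosomal depletion and another an mRNA kit.

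Of 28987 rows, 795 without a symbol and 27 with a calendar date as symbol were left out (0.785%, 0.734% and 0.787% of the sums). Values of 90 symbols on several rows were summed, among them Ebf1, whose other row was at 0. The 3 columns of another series were not used. Log values are log2(TPM + 1). Likeness was the Euclidean distance between centred log profiles among symbols with a mean of at least 1 TPM, and the 3 nearest genes are named. Each related list names its 2 highest and 2 lowest genes. A gene of the fixed lists is not reported here and was left out of their counts. Older symbols were matched through RefSeq synonyms, and positions are from GENCODE M21. The members and lists were chosen with earlier results of these data known. Alternatives covered the pseudocount, detection threshold, low-value filter, upper-quartile scaling, repeated symbols and each mouse left out. The scripts were tested on simulated data. Python 3.11.15, numpy 2.4.6, pandas 2.3.3 and matplotlib 3.10.9 were used.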

Additional observations from a re-analysis of the deposited data

How the results depend on the processing

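No paired analysis was possible because all samples belong to a single group. Both the count of genes lowest in mouse 1 and highest in mouse 3 and its alternatives were chosen after seeing the data. The median over the 9 genes, taken in each mouse and averaged over the 3 mice, was 1.64 on the log2(TPM + 1) scale. It was 1.15 with a pseudocount of 0.1, 2.29 over genes with a mean of at least 1 TPM, and 1.97 with symbols on several rows left out, which removes Ebf1. With the pseudocount of 0.1 the medians, taken in the same way, of the surrogate light chain, end joining and immunoglobulin constant lists were -1.49, 3.92 and -0.69, against 0.35, 4.005 and 0.69. Over genes with a mean of at least 1 TPM, the constant list moved to 5.78. The surrogate light chain list had no such gene and so no value there. The number of genes detected in all mice was 6 at 1 TPM and 2 at 5 TPM. Without the filter, 1 gene (Rag1) was at least 2-fold apart between mice 2 and 3, against 0. Of 53 recomputed levels of single genes, 47 stayed within 1 SD of the reported level, and the 6 that did not were those of Rag1, Rag2, Il7r, Ebf1, Pax5 and Cd79a with the pseudocount of 0.1. Part of this agreement was fixed in advance. With 3 mice, leaving 1 out moves a mean by less than 1 SD, whatever the values. Leaving out repeated symbols changes no gene that is on 1 row. Without read counts, no counting error can be given for values under 1 TPM, such as those of Rag1.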
